A study of Mus musculus with 10 samples.

Results

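The genes described here are those of insulin and insulin-like growth factor (IGF) signalling on arrays of the mouse hemibrain, chosen by symbol. They comprise a ligand (Igf1), the receptors Igf1r and Insr, the receptor adaptors Irs1 and Irs2, and the IGF binding proteins Igfbp2, Igfbp3, Igfbp4, Igfbp5 and Igfbp6. Of these 10 genes, 8 were matched to a probe, with 15 probes in all, out of 18539 genes and 27198 probes that could be named on the array. Irs2 and Igfbp6 are not analysed here, as no probe was matched to them.

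Insulin and IGF-1 bind to related receptor tyrosine kinases, the insulin receptor and the IGF-1 receptor, which phosphorylate insulin receptor substrate (IRS) proteins and through them recruit phosphoinositide 3-kinase (PI3K) and activate AKT. The binding proteins hold IGFs in the extracellular fluid and, depending on the protein and the tissue, restrain or prolong their action. In the brain these genes are used by neurons, glia, vessels, choroid plexus and meninges, where they are known for roles in growth, survival of cells, myelination and metabolism.

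The samples were left hemibrains of 10 male C57BL/6J mice, housed singly and placed on a fish oil (n-3 PUFA) enriched diet (FD) or a standard lab diet (SD) from 3 weeks of age for about 20 weeks, to an age of 5 months. Hemibrain RNA of each mouse was labeled with Cy-5 and hybridized on a dual dye array against a reference RNA in Cy-3, with no array of the opposite dye order. By the diet field of the sample labels every hemibrain came from an FD mouse, by the description field all were controls, and by the methods, which account for fewer arrays than the 10 deposited, the arrays were divided between both diets. The diet of an array was thus not settled, and FD was not compared with SD. Values are therefore given by array, named by animal number, or as the lowest, median and highest of 10 arrays, and whether animals on 1 diet or on both lie behind a spread cannot be told apart.

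The reference was also described in more than one way, as pooled hemibrain of SD mice in the labels and as a commercial reference RNA in the labeling protocol. The data go against a hemibrain pool. The median log2 Cy-5/Cy-3 of 6 neuronal markers lay between 5.38 and 6.35 on the 10 arrays, and that of 5 oligodendrocyte markers between 4.24 and 5.49, whereas that of 5 markers of proliferating cells lay between -6.53 and -5.86. A ratio below 0 here thus says that a gene gave less signal in hemibrain than in a reference rich in transcripts of dividing cells, and it also carries any dye preference of the probe. The array of C10-434 was dim, with 49.8% of its probes well above the Cy-5 background where the others had 68.2% to 76.9%, and results are given without that array where it matters. The arrays lay on 4 slides, called A to D here, with C10-415, C10-416, C10-417 and C10-423 on slide B, C10-424, C10-425, C10-434 and C10-435 on slide C, and C10-413 and C10-437 each alone on slides A and D. In whole hemibrain, fewer cells of a type and less RNA per cell cannot be told apart.

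Where several probes matched a gene, the gene was represented by its brightest probe, the probe with the highest mean log2 signal over both dyes and all arrays. All 8 of these probes were well above background in both dyes on all 10 arrays. Igfbp5 was the only member at least 1 log2 unit (2-fold) above the reference on every array, and Igf1 was the only member at least 1 log2 unit below it on every array. Among the 17659 genes with a value on all arrays, 15.7% met the first criterion and 16.1% the second, so 1 of 8 members on each side is near the share of all genes. The median log2 ratio of the 8 members was 0.09, beside 0.05 for all genes. With normexp background correction no member met either criterion, as Igfbp5 then read 0.70 and Igf1 -0.27 on C10-413. Taken against 0 in place of 1, Igfbp3 and Igfbp5 were higher and Igf1, Igf1r and Igfbp4 lower than the reference on all 10 arrays, whereas Insr, Irs1 and Igfbp2 had values on both sides of 0. Of the 17659 genes, 31.3% were above 0 and 33.9% below 0 on all 10 arrays. The 2 of 8 members above and 3 of 8 below are thus near the shares of all genes.

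**Figure D1:**
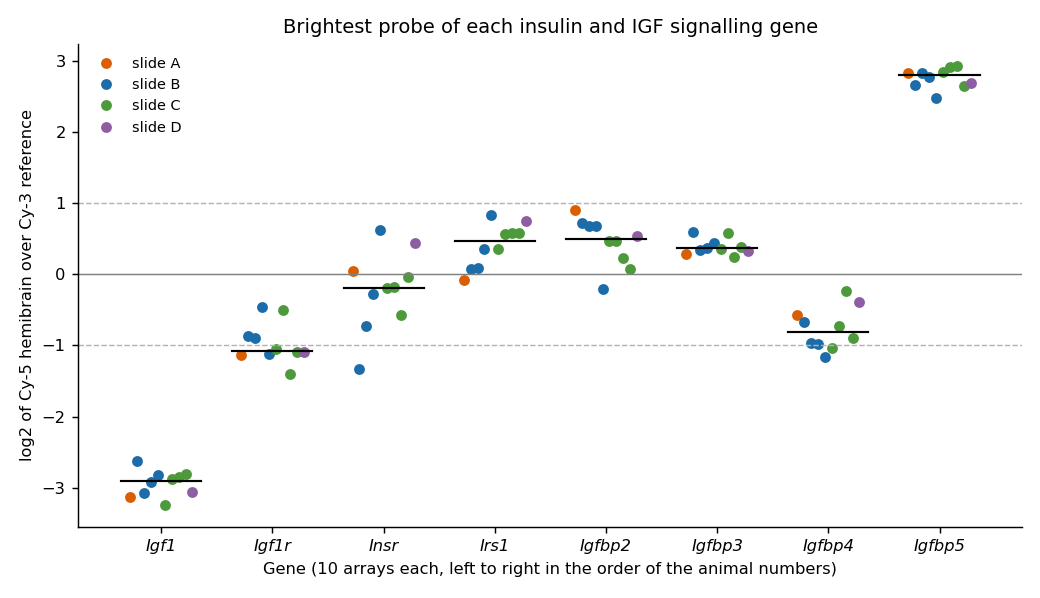
Log2 ratio of Cy-5 hemibrain to Cy-3 reference signal for the brightest probe of each gene. Points are the 10 arrays in the order of the animal numbers, coloured by slide, bars are medians and dashed lines mark -1 and 1. Igfbp5 lay above 1 and Igf1 below -1 on all 10 arrays, and Insr had the widest range, from -1.33 to 0.62.

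Igf1, the growth factor that the IGF-1 receptor binds with highest affinity, gave less signal in hemibrain than in the reference by both of its probes. The log2 Cy-5/Cy-3 of probe A_51_P147942 was -3.24 at its lowest (C10-424), -2.90 at the median and -2.63 at its highest (C10-415), a median 7.47-fold below the reference. That median was -2.09 with normexp and -2.19 after subtraction with a floor, or 4.26-fold and 4.56-fold. Its median processed signal was 411 in Cy-5 and 3273 in Cy-3. The probe was printed on 10 spots per array, and the SD of the log2 ratio over the spots of an array was 0.06 to 0.15, with a median of 0.09. The SD of the 10 array means was 0.18, and these also carry separate labeling and hybridization of each animal's RNA. The second Igf1 probe, A_52_P351116, passed the Cy-5 background flag on 9 arrays and ranged from -2.83 (C10-434) through a median of -1.66 to -1.39 (C10-423). It lay above the first probe on all 10 arrays, by a median of 1.26 on the log2 scale, so the direction against the reference is shared by both probes and the size is not.

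Igf1r, the receptor tyrosine kinase for IGF-1, was measured by 3 probes. The brightest, A_51_P474538, ranged from -1.40 (C10-434) through a median of -1.08 to -0.46 (C10-417), and was thus below the reference on all 10 arrays. A_52_P634111 was also below 0 on all 10 arrays, with -1.76 (C10-437), -1.18 and -0.39 (C10-415) as its lowest, median and highest value. A_51_P318365 had the smallest median distance from the reference, -0.38, and ranged from -1.30 (C10-423) to 0.02 (C10-425), the single value above 0 among the 3 probes. The arrays at which the probes were lowest or highest differed from probe to probe.

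Insr, the receptor for insulin, had the widest range of the members by its brightest probe. This probe, A_52_P494514, had a log2 ratio of -1.33 on C10-415 and 0.62 on C10-423, with a median of -0.19 and 7 of 10 arrays below 0. The difference of 1.95 between the extreme arrays is 3.86-fold. The other Insr probe, A_52_P6490, ranged over 0.60 log2 units only, from -0.58 (C10-416) through -0.27 to 0.01 (C10-434), and passed the Cy-5 background flag on 9 arrays. On C10-415 and C10-423, which are the extremes of the first probe, the second read -0.38 and -0.40. The median of the brightest probe turned to 0.03 with loess within each array, so that no direction against the reference is given for Insr. With normexp its range was 0.97, below that of 5 other members, of which Igf1 had the widest, 2.11.

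Irs1, the adaptor that carries the signal from both receptors to PI3K, gave opposite directions by its probes. The brightest, A_52_P175242, ranged from -0.08 (C10-413) through a median of 0.47 to 0.83 (C10-423) and was above 0 on 9 of 10 arrays. A_52_P171212 was below 0 on all 10 arrays, with values from -2.71 (C10-416) through -1.88 to -1.47 (C10-435), but passed the Cy-5 background flag on 3 arrays alone, with a median Cy-5 signal of 54.5. The 2 probes differed by 1.82 to 2.80 log2 units on the same array.

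The binding proteins lay on both sides of the reference. Igfbp5, which neurons, astrocytes and vessels are known to produce, was the member highest above it. Probe A_52_P281702 ranged from 2.49 (C10-423) through 2.80 to 2.93 (C10-434), a median of 6.99-fold, with a median processed signal of 11281 in Cy-5 and 1688 in Cy-3. A_51_P204153 was above 0 on all 10 arrays too, at 1.96 on C10-425 and a median of 1.56, with 0.15 on C10-437 far from the next value of 1.22. This probe was dimmer, with a median Cy-5 signal of 284, and was well above background on 9 arrays in Cy-5 and 8 in Cy-3.

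Igfbp2, the binding protein known for its expression in choroid plexus, meninges and astrocytes, was measured by a single probe, A_51_P423308. It ranged from -0.21 (C10-423) through a median of 0.50 to 0.91 (C10-413), and was above 0 on 9 of 10 arrays. The difference between those arrays is 2.17-fold, and C10-423 was the single array below the reference. Igfbp2 and Igfbp5 are next to each other in the genome, with no protein-coding gene listed between them in RefSeq (GRCm38.p6), as are Igfbp1 and Igfbp3. Over the 10 arrays, Igfbp2 and Igfbp5 had a Pearson r of 0.49 (permutation p = 0.149) and a Spearman rho of 0.12 (permutation p = 0.760), and r was 0.02 without C10-423, the lowest array for both, 0.68 without C10-434 and -0.49 without C10-423 and C10-435, the arrays farthest from the median of Igfbp2.

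Igfbp3, the main carrier of IGFs in serum, was measured by a single probe. A_52_P253179 lay between 0.25 (C10-434) and 0.60 (C10-415), with a median of 0.37 or 1.29-fold. Its range of 0.35 was the smallest of the members, but with centring on the median it was 0.46 and that of Igfbp5 was 0.37. Igfbp4, a binding protein known to inhibit IGF action until it is cut by the protease PAPP-A, was below the reference on all 10 arrays by both probes. A_52_P257502 ranged from -1.16 (C10-423) through -0.81 to -0.23 (C10-434), and A_51_P398971 from -2.18 (C10-435) through -1.44 to -0.70 (C10-413). C10-434, on which the first probe was highest, read -1.99 with the second.

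As the spread between arrays is the only measure of difference among animals that these data allow, it was asked whether the probes of a gene agreed on it. There are 7 pairs of a brightest probe with another probe of the same gene, over 6 genes and 10 arrays. Pearson r ranged from -0.47 for Igf1 (permutation p = 0.170) to 0.48 for Irs1 (permutation p = 0.155), and no pair passed after Benjamini-Hochberg adjustment over the 7 pairs, with the smallest adjusted permutation p at 0.597. Spearman rho ranged from -0.24 for Igf1 (permutation p = 0.513) to 0.49 for Irs1 (permutation p = 0.155), with a smallest adjusted permutation p of 0.580. For the other pairs, r was 0.24 and 0.17 for Igf1r, 0.06 for Igfbp4, 0.13 for Igfbp5 and 0.06 for Insr. Without the 2 arrays farthest from the median of the brightest probe, r was 0.80 for Irs1, 0.44 for Igfbp4, 0.32 for Igfbp5, 0.25 and 0.22 for Igf1r, 0.08 for Insr and -0.21 for Igf1. Without the dim array C10-434, r was 0.38 for Igfbp4, 0.39 and 0.47 for Igf1r and between -0.52 (Igf1) and 0.51 (Irs1) for the others. With 10 arrays a correlation of moderate size would not pass, so these values do not show that the probes are unrelated.

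**Figure D2:**
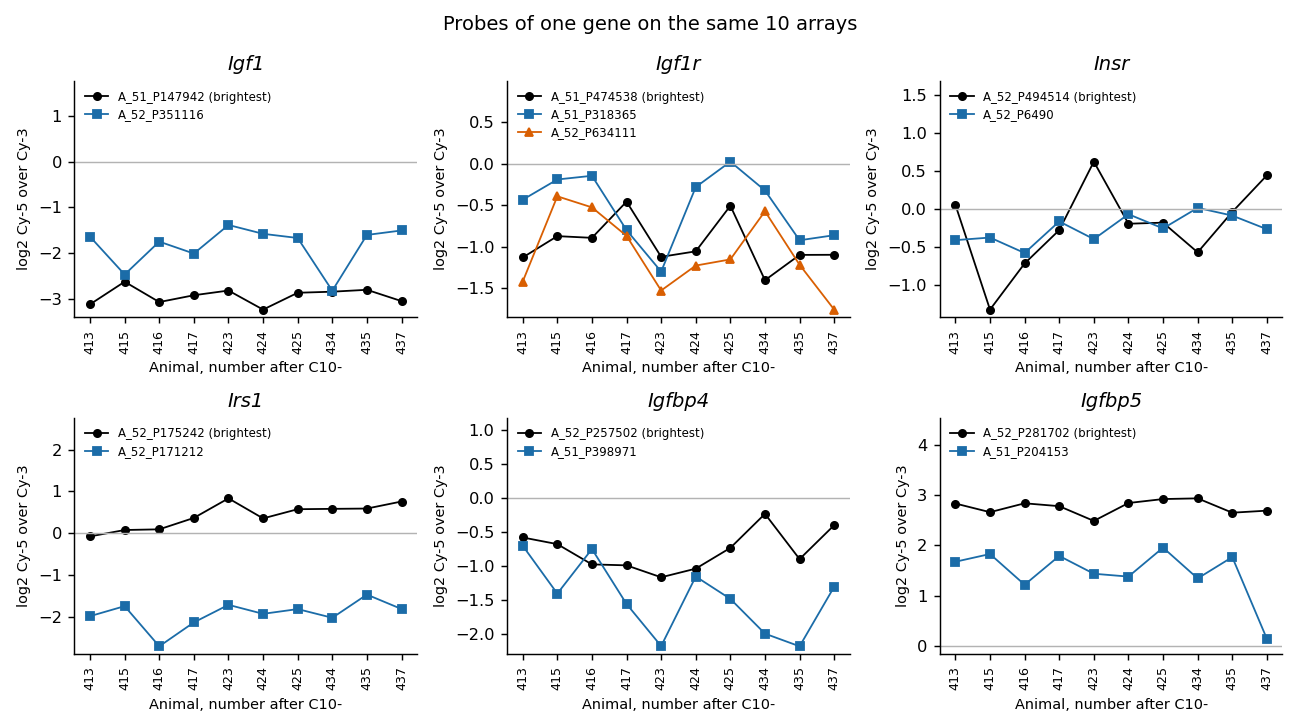
Log2 Cy-5/Cy-3 on the 10 arrays for each probe of the 6 genes with more than 1 probe. Lines join the arrays of a probe in the order of the animal numbers and stand for no trend. Irs1 probes lie on opposite sides of 0 on 9 arrays, and the swing of the brightest Insr probe from -1.33 to 0.62 is not seen in the other Insr probe.

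The range over the arrays was next taken in each dye alone, with the log2 processed signal of a probe set against the 75th percentile of that dye on the array. The Cy-3 channel holds a reference that the labels describe alike for all arrays, whereas the Cy-5 channel holds a different mouse on each. In Cy-3, the members' brightest probes ranged over 0.17 (Igf1) to 0.28 (Irs1) log2 units from the lowest to the highest array. In Cy-5 the ranges were 0.24 for Igfbp3, 0.45 for Igfbp5, 0.62 for Igf1, 1.02 for Irs1, 1.02 for Igfbp4, 1.07 for Igf1r, 1.13 for Igfbp2 and 1.86 for Insr. The Cy-5 range was thus larger than the Cy-3 range for 7 of the 8 members, all but Igfbp3, and it was larger for 93.9% of the 10533 genes well above background in both dyes on all arrays. The median range of the members was 1.02 in Cy-5 and 0.22 in Cy-3, beside 0.87 and 0.23 for those genes. For the ratio, the median range was 0.92 over the members and 0.79 over the same genes, and 5 of 8 members were above 0.79. Without the dim array C10-434 the members' median range was 0.72. No range over all genes without that array is given here, so the members are not called wider than other genes. How much of the Cy-5 range came from labeling and hybridization and how much from the animals was not tested.

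**Figure D3:**
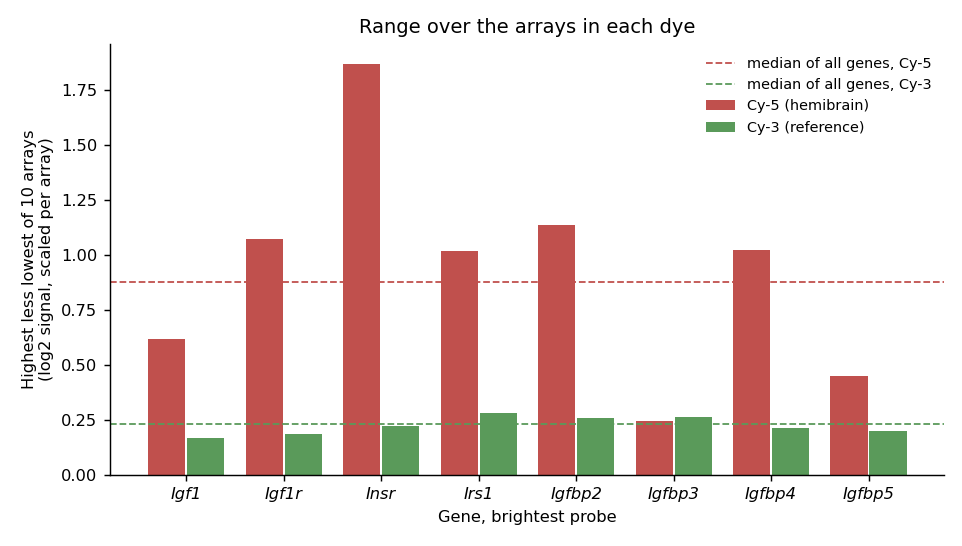
Highest less lowest value over the 10 arrays of the log2 signal of each dye, scaled to the 75th percentile of the array, for the brightest probe of each gene. Dashed lines are the medians of 10533 genes. Igfbp3 is the single gene whose Cy-5 bar (0.24) is shorter than its Cy-3 bar (0.26), and Insr has the tallest Cy-5 bar (1.86).

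The extreme values were unevenly spread over the animals. C10-423 held the lowest or the highest ratio of 5 of 8 members, being lowest for Igfbp2, Igfbp4 and Igfbp5 and highest for Insr and Irs1, and the same array held an extreme for 37.3% of the 10533 genes, the largest share of any array. C10-434 held an extreme for 4 members (28.2% of all genes), C10-415 for 3 (30.5%) and C10-413 for 2 (32.7%). C10-416, C10-425, C10-435 and C10-437 held none, against 7.03% to 19.8% of all genes. C10-417, highest for Igf1r, and C10-424, lowest for Igf1, each held 1, against 7.37% and 7.32% of all genes.

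Among the 28 pairs of the 8 members, the relation of largest size was that of Irs1 with Igfbp2, which ran in opposite directions over the animals. Irs1 was lowest on C10-413 (-0.08), where Igfbp2 was highest (0.91), and Irs1 was highest on C10-423 (0.83), where Igfbp2 was lowest (-0.21). Pearson r was -0.81 (permutation p = 0.00404) and Spearman rho -0.81 (permutation p = 0.00665), which after adjustment over the 28 pairs gave permutation p of 0.113 and 0.186. The relation was thus not called. Without C10-413 and C10-415, the arrays farthest from the median of Irs1, r was -0.69, and it was -0.75 without C10-423 and -0.80 without C10-434. Within slides B and C, r was -0.93 and -0.58 over 4 arrays each, too few for a test. In the Cy-5 signal alone, r was -0.90 (permutation p = 0.000280) and rho -0.95 (permutation p = 0.000150), with adjusted permutation p of 0.00784 and 0.00420 over the 28 pairs. With loess within each array r was -0.77 (permutation p = 0.00774, not adjusted), and with normexp background correction it was -0.34 (permutation p = 0.334). With the dimmer Irs1 probe, which passed the Cy-5 background flag on 3 arrays alone, r was -0.48 (permutation p = 0.160). The pair was picked for its size, and the part that diet, slide or RNA quality has in it was not tested.

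**Figure D4:**
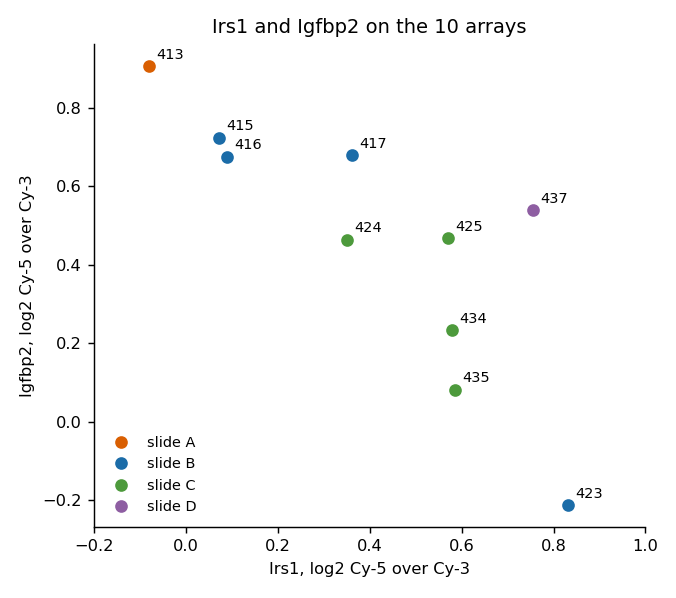
Log2 Cy-5/Cy-3 of Igfbp2 against that of Irs1, each by its brightest probe, with 1 point per array labelled by the animal number after C10- and coloured by slide. Igfbp2 was highest where Irs1 was lowest (C10-413) and lowest where Irs1 was highest (C10-423), with r of -0.81 over 10 arrays.

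Of the remaining pairs, Insr with Irs1 had r of 0.62 (permutation p = 0.0542) and rho of 0.58 (permutation p = 0.0895), and Igf1r with Igfbp3 had r of 0.60 (permutation p = 0.0585) and rho of 0.59 (permutation p = 0.0810), with an adjusted permutation p of 0.546 for both values of r and 0.626 for both values of rho. Without the 2 farthest arrays, r was 0.33 for the first and 0.68 for the second.

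IGF binding proteins are known from choroid plexus and meninges, tissues whose amount can differ from one dissected hemibrain to the next, so each member was set against marker lists of both. The choroid plexus list (7 markers with Cy-5 flags on every array, Ttr and Kl among them) moved from -0.45 (C10-437) to 0.39 around its own median, and the leptomeningeal list (6 markers, Dcn and Col1a1 among them) from -0.11 to 0.16. Of 16 relations, none passed after adjustment, with 0.371 as the smallest adjusted permutation p. The relation of largest size was that of Insr with choroid plexus, with r of -0.65 (permutation p = 0.0397) and rho of -0.67 (permutation p = 0.0377), and without the 2 arrays farthest from the list's median (C10-437 and C10-415) r was -0.22. Igfbp2 had r of 0.09 with choroid plexus (permutation p = 0.812) and 0.32 with leptomeninges (permutation p = 0.371), with rho of 0.25 (permutation p = 0.493) and 0.35 (permutation p = 0.330). Slides of 4 arrays are too small for these relations within a slide. Igf1r with leptomeninges had r of 0.59 over all arrays (permutation p = 0.0726) with rho of 0.54 (permutation p = 0.114). Without C10-417 and C10-415, the arrays farthest from the median of the leptomeningeal list, r was 0.33. Without C10-434 it was 0.78, with an adjusted permutation p of 0.241.

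To see whether slides mattered for the members, the 4 arrays of slide C were set against the 4 of slide B with limma over 40299 probes. With Benjamini-Hochberg adjustment and a threshold of 0.05, 30 probes or 0.0744% were called, 14 higher and 16 lower on slide C, and none of the 15 member probes was. Leaving out a single array brought the count of called probes to between 0 and 18, and that of member probes stayed at 0. None of the 15 passed at an unadjusted p of 0.05 either, where 10.0% of all probes did. The smallest adjusted p of limma among the members was 0.640, for Insr probe A_52_P6490, which differed by 0.28 with a 95% interval of -0.07 to 0.63. Over all member probes the differences lay between -0.23 and 0.28, and their intervals reached from -0.98 to 1.01, so slide differences near 1 log2 unit cannot be set aside for the widest of them. The slides hold different animals, and slide and diet cannot be told apart.

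The rest of the pathway was taken from a list of 50 genes in 7 roles, all of which had a probe, and 40 of these probes carried the flag for signal well above background in every Cy-5 sample. Of 45 genes with a value on all arrays, 5 were at least 1 log2 unit above the reference on every array (11.1%) and 11 at least 1 below it (24.4%), against 15.7% and 16.1% of all genes. The median of the 50 genes was -0.17. Each gene is given by its brightest probe, and other probes of the same gene are given for Ins2 and Igf2 alone.

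Among the ligands, Ins2, the mouse insulin gene known to be expressed also outside the pancreas, was above the reference by both probes. A_52_P407060 ranged from 1.84 (C10-425) through 2.03 to 2.36 (C10-416), and A_51_P389597, printed on 10 spots, from 1.67 (C10-434) through 2.05 to 2.24 (C10-424), so that the medians of both were 4.09-fold and 4.14-fold. The median Cy-5 signals of these probes were 1132 and 730, and both were well above background in both dyes on all 10 arrays. Ins1, the other insulin gene, was not well above background in Cy-5 on any array, with a signal between 11.5 and 38.1. Igf2, a growth factor of choroid plexus and meninges in the adult brain, had a log2 ratio from 0.37 (C10-425) through 0.90 to 1.14 (C10-413) by probe A_51_P516826 and from 0.20 (C10-434) through 1.15 to 1.99 (C10-413) by A_51_P516833, and C10-413 was highest for both. The SD of the array means of A_51_P516826 was 0.27, and the median SD of its 10 spots within an array was 0.08. Of the receptors, Igf2r, which clears IGF-2, ranged from -0.73 (C10-416) through -0.44 to -0.07 (C10-434), below 0 on all arrays, and Insrr passed the Cy-5 background flag on 9 arrays.

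The genes of binding and release held 3 of 6 below the reference on all arrays and none above. Ide, the insulin-degrading enzyme, had a median of -1.78 (range -2.16 to -1.05). Among genes of this role whose Cy-5 flags passed on every array, Htra1, a secreted protease that cuts IGF binding proteins, was highest. Its median was 1.87 (1.27 to 2.15 over the arrays with a value). Htra1 had no value on C10-423 and is thus not among the 6 counted, though all its other values were past 1 log2 unit. Igfbp7 and Pappa were the other genes below, and Pappa passed the Cy-5 background flag on 9 arrays. Igfbp1, a binding protein of liver, passed the background flag on 7 arrays for Cy-5 and on 1 for Cy-3, and no fold is given. Among the adaptors, 2 of 8 were at least 1 log2 unit below on all arrays (Shc1 with a median of -2.05, and Grb10) and none that far above. Grb14, an adaptor that inhibits the insulin receptor, had the highest median at 1.16 (0.83 to 1.44), above 0 on all arrays.

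In the PI3K and AKT group, Pdpk1, the kinase that activates AKT, was above the reference on all arrays, with a median of 2.83 (1.88 to 3.26). Pik3r1, a regulatory subunit of PI3K, was below it at -3.73 (-4.08 to -3.31). Akt1 and Akt2 had values on both sides of 0. Of the brakes on the pathway, 3 of 6 were below on all arrays. Trib3, a pseudokinase that binds AKT and is induced by stress, had the lowest median of the list at -5.70 (-6.39 to -5.33), and Socs3 and Inpp5d were also below. Phlpp1, a phosphatase of AKT, was above at 1.43 (1.09 to 2.08). Among the targets, 2 of 13 were on each side, Tsc1 and Mtor above and Rictor and Eif4ebp1 below. Eif4ebp1, the repressor of translation that mTOR phosphorylates, had a median of -5.24 (-5.57 to -4.92). Gsk3a, a kinase that AKT inhibits, had the highest median of this role, 1.45. It read 0.05 on C10-434, 0.19 on C10-423, 0.62 on C10-417 and 0.66 on C10-435. None of the 80 probes of these genes in the slide comparison was called, with 0.166 (Rictor) as the smallest adjusted p of limma.

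**Figure D5:**
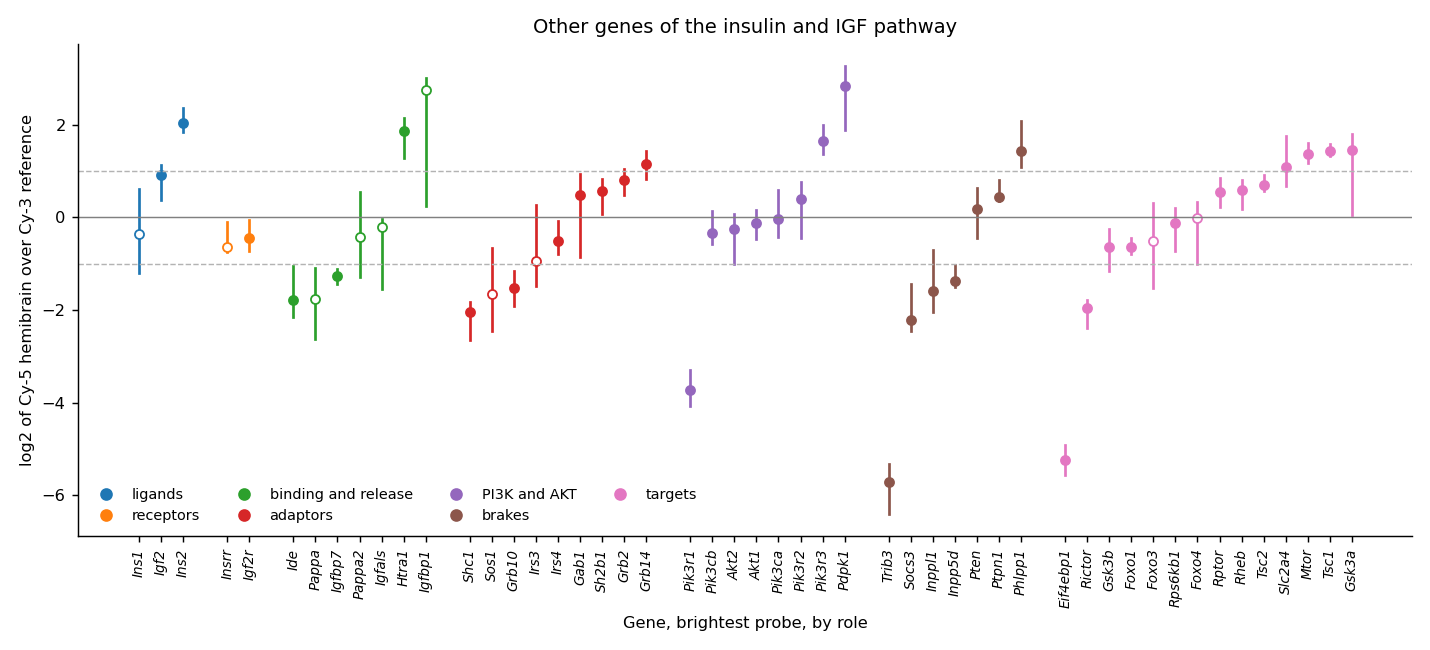
Median (points) and lowest to highest value (lines) over the arrays of the log2 ratio of Cy-5 hemibrain to Cy-3 reference, for the brightest probe of 50 other pathway genes by role. Open points are genes whose Cy-5 signal was not well above background on every array, and dashed lines mark -1 and 1. Trib3 (-5.70) and Eif4ebp1 (-5.24) lie lowest and Pdpk1 (2.83) highest among the filled points.

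The genes whose ratio followed that of Insr most closely over the 10 arrays, among 10532 genes well above background in both dyes, were Nkrf with a Pearson r of 0.99, Rnmt with 0.98 and Tank with 0.97. Nkrf ranged from 0.38 to 1.54, Rnmt from -0.80 to -0.22 and Tank from -1.55 to -0.45. These values describe likeness to the brightest Insr probe, whose pattern the second Insr probe did not share, and no test was made on them.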

How the data were processed

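Hemibrain RNA of 10 mice was measured in Cy-5 against a reference in Cy-3. The authors deposited, per array, Feature Extraction 10.10.1.1 output with signal intensities on a linear scale for each dye, already background-corrected and dye-normalized in the processed signals, a log10 ratio per spot, and flags. The authors also deposited a table of log2 ratios, which equalled the values computed here within 0.001 for all probes with both values.

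The log2 Cy-5/Cy-3 of the processed signals was then taken, with 1639 control spots and outlier spots left out and replicate spots averaged. A probe counted as well above background where at least 0.5 of its spots carried the flag. Probes were named by accession through RefSeq (GRCm38.p6), which served for names and gene order alone. Of 41174 probes, 27198 matched a gene. Arrays have no count depth, and precision is limited by how many there are and by signal over background. Slides were compared with limma 3.58.1 in R 4.3.3 (Benjamini-Hochberg). On simulated data (40299 probes, a log2 change of 1.5 in 200), 57.5% of the changed ones were recovered and 7 unchanged probes were called. Relations over arrays used Pearson and Spearman coefficients with two-sided permutation tests (100000 resamples, Python 3.11.15). The arrays were separate mice, and their diets were not settled.

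Alternatives were loess (span 0.3), centring on the median, normexp (offset 50, then loess), the deposited table and all probes of a gene. Only probes well above background, a limit of 0, each dye alone, and arrays left out were further ones. Subtraction with a floor of 0.5, Cy-3 alone, the relations between probes and between members, and the counts of extremes per array were added after the data were examined. After subtraction with the floor, an offset of 50 was added and loess was run. Normexp and this subtraction started from the median spot signals in place of the processed ones, so a shift under them is not due to the floor or the background step alone. The genes and lists were chosen with earlier results of these data known. A further gene planned for the pathway list is not reported here, which leaves 50 genes. Named from these were the highest and lowest median per role among genes whose Cy-5 flags passed on every array. Others named beyond this rule, such as Ins1, Insrr, Igfbp1, Akt1 and the genes above or below the reference on all arrays, were picked after their values were seen.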

Additional observations from a re-analysis of the deposited data

Results flagged for a closer look

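Of the 15 member probes, 1 had an array standing apart from the other arrays. Igfbp5 probe A_51_P204153 read 0.149 on the log2 scale on C10-437, and the nearest of the other arrays was at 1.22 and the farthest at 1.96, so the gap took up 0.593 of the whole range, past Dixon's 95% critical value for 10 arrays. Chance alone flags about 1 in 20 sets of values, or 0.75 over the 15 probes tested, so 1 flag is near what chance gives. The brightest Igfbp5 probe read 2.69 on C10-437, within its range of 2.49 to 2.93.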

How the results depend on the processing

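With normexp background correction, 0 members were above and 0 below the reference by 1 log2 unit on all arrays, because Igfbp5 read 0.70 and Igf1 -0.27 on C10-413. With a limit of 0, 2 members were above and 3 below, beside 31.3% and 33.9% of all genes. Loess, centring, the deposited table, subtraction with a floor, all probes of a gene and the omission of C10-434 each left 1 and 1. The members' median range of 0.92 lay between 0.72 and 1.09 under the other settings except in Cy-3 alone, where it was 0.217. The median of Insr turned to 0.0252 with loess, 0.0366 with normexp and 0.0649 with subtraction and a floor, and that of Irs1 to -0.758 over all probes. Igf1 moved from -2.90 to -2.09 with normexp and -2.19 with the floor. Of 80 such medians of members under alternatives, 67 kept their sign and moved by less than the SD over the arrays. These include all medians from the deposited table, which held the same values, and from the filter on background, which kept the same probes. Under those settings no median could move. A further 9 kept their sign and moved by more, and 4 changed sign. In the slide comparison 0 probes were called with normexp and 1 with subtraction and a floor. Leaving out each array of the 2 slides in turn gave 0 to 18 called probes, with 0 without each array of slide C and without C10-416 or C10-417, 2 without C10-415 and 18 without C10-423. No member probe was called under any setting run. None of the 16 relations with marker lists passed with loess or without C10-434. The cause of these shifts was not tested. No paired analysis was possible because all 10 arrays form 1 group.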
